A study of Caenorhabditis elegans with 21 samples.

Results

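The 6 vitellogenin genes *vit-1*, *vit-2*, *vit-3*, *vit-4*, *vit-5* and *vit-6* are all the yolk protein genes of *C. elegans*, and they were taken by name from the 22840 genes measured by mRNA-seq in whole animals. All 6 were found, and all 6 were among the 12843 tested genes, whose mean level was 1 TPM or more. TPM (transcripts per 1000000 transcripts) relates the reads of a gene to its length and to the whole library, so levels can be compared between genes. Of the 21 libraries, from 9 genotypes, 3 each came from wild type, from *pmk-1(-)*, which carries the null allele *km25* of the p38 MAPK gene *pmk-1*, and from *pmk-1(D327E)*, allele *miy7*, in which the caspase cleavage site of PMK-1 is changed. Another 2 each came from *daf-16(mgDf50)*, a deletion of the FOXO transcription factor gene *daf-16*, from *daf-16(m26)*, which the labels call a splice site mutation, and from the 4 double mutants of either *daf-16* allele with *pmk-1(-)* or *pmk-1(D327E)*. All animals were hatched into L1 arrest in M9 buffer for 24 h and then fed OP50 bacteria for 48 h at 20 °C. The labels give the stage as late L4, with a share of 95% stated for wild type, and the study describes day 1 young adults. No such share is given for the mutants. The study reports faster larval growth when *pmk-1* function is lost, so stage and genotype cannot be told apart by the labels. The study describes the libraries of a genotype as biological replicates, each from a large population of worms. The strain list names the wild-type strain as a sibling of the *pmk-1(D327E)* strain.

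Vitellogenins are large lipid-carrying proteins that are made in the intestine of the hermaphrodite, secreted into the body cavity and taken up by growing oocytes, where they feed the embryo. Their transcription starts at the transition from the last larval stage to the adult and then remains among the strongest of the animal, so the mRNAs are widely used as a sign of adult hermaphrodite physiology. *vit-1* to *vit-5* encode the heavier yolk proteins, and *vit-6* encodes a precursor that is cleaved into a pair of smaller ones. The comparison with *daf-16* has a background in insulin signalling: in *daf-2* insulin receptor mutants, in which DAF-16 is active, yolk protein mRNAs are low.

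All 6 yolk protein mRNAs were abundant in every library, and their order never changed. *vit-6* was the highest, followed by *vit-2*, *vit-5*, *vit-1*, *vit-3* and *vit-4*, and this order held in all 21 libraries. *vit-6* ranged from 2806 to 5599 TPM with a median of 4449 TPM and held a rank between 2 and 55 among all genes of its library. *vit-2* ranged from 2706 to 4944 TPM with a median of 3840 TPM, and *vit-5* from 1494 to 2417 TPM with a median of 1994 TPM. *vit-1* lay between 998.9 and 1701 TPM, *vit-3* between 459.1 and 775.9 TPM, and *vit-4*, the lowest of the 6, between 381.2 and 608.1 TPM, a rank between 234 and 370. Neighbours in this order came closest at the top, where *vit-6* exceeded *vit-2* by a factor of 1.037 to 1.301 within a library, and at the bottom, where *vit-3* exceeded *vit-4* by a factor of 1.108 to 1.372. The ranges of *vit-6* and *vit-2* over all libraries overlapped, as did those of *vit-5* and *vit-1* and those of *vit-3* and *vit-4*. The ordering within each library did not depend on the genotype.

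The 6 genes together made up 1.292% of the transcripts of the median library. The lowest share, 0.896%, was in *pmk-1(-)* replicate 3 and the highest, 1.604%, in *daf-16(mgDf50);pmk-1(-)* replicate 2, which also had the highest value of each of the 6 genes. Wild type was narrow, with a sum of 12890 ± 72.7 TPM (SD, n = 3), and *pmk-1(-)* was wide, with 11330 ± 2201 TPM (SD, n = 3). *pmk-1(D327E)* had a sum of 12180 ± 559.0 TPM (SD, n = 3). TPM values of whole animals are shares of all mRNA, so less yolk protein mRNA and more mRNA from other tissues cannot be told apart. Between the libraries of 1 genotype the SD was 0.13 for *vit-5*, 0.16 for *vit-2*, 0.17 for *vit-4*, 0.19 for *vit-6*, 0.21 for *vit-3* and 0.23 for *vit-1* on the scale of log2(TPM + 1). Genes at least as abundant as *vit-4*, 267 in all, had a median of 0.12 on the same scale, so each yolk protein gene varied more between libraries of the same genotype than the median of equally abundant genes.

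**Figure D1:**
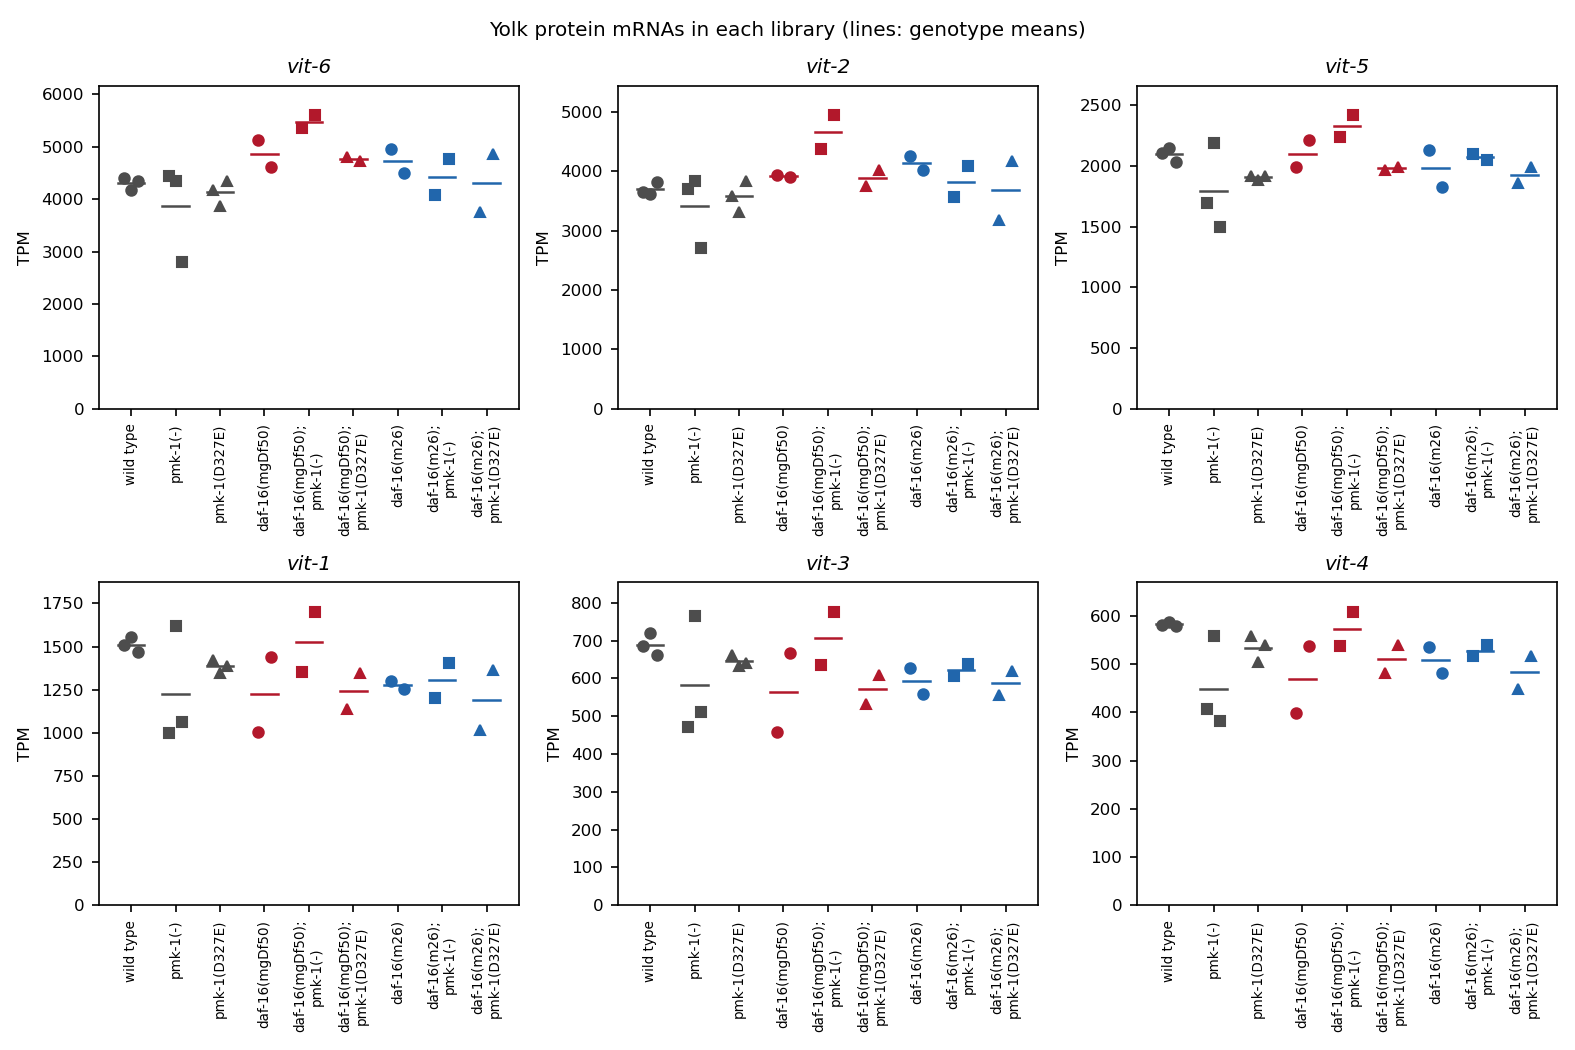
TPM of each yolk protein gene (vertical axis from 0, a scale for each gene) in each library, by genotype. Points are libraries, horizontal lines are genotype means, and colours mark intact *daf-16* (grey), *mgDf50* (red) and *m26* (blue). For *vit-6*, the 6 *mgDf50* libraries, 4605 to 5599 TPM, lie above the 9 libraries with intact *daf-16*, 2806 to 4449 TPM, whereas for *vit-3* the same sets overlap.

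The 6 libraries labelled *mgDf50* had low *daf-16*, at 6.12 to 7.78 TPM. It was at 55.0 to 61.8 TPM in the 6 *m26* libraries and 41.5 to 47.4 TPM in the 9 others. A gene's total cannot show a splice site mutation, so the *m26* label was not checked. *pmk-1* was still detected in the 7 *pmk-1(-)* libraries, at 10.7 to 13.9 TPM, below the wild-type range of 14.1 to 15.3 TPM. In limma, the linear model described below, its log2 fold change averaged over the *daf-16* genotypes was -0.28 (SE 0.07). This passed the threshold of an adjusted p below 0.1 (limma adjusted p = 0.0584). In *pmk-1(-)* against wild type it was -0.34 and did not pass (limma adjusted p = 0.370). The gene's total was thus lower but still present, and it does not show that the allele is null. The libraries also differed in germ-line mRNAs. The 18 oocyte and eggshell genes summed to between 4571 and 8873 TPM and the genes of the major sperm protein (*msp*) to between 1453 and 6708 TPM. *col-19*, a collagen of the adult cuticle, was at 1694 to 2669 TPM in every library, and the 10 intestinal markers, among them the brush border actin *act-5* and the protease *asp-1*, were all present.

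The first question was whether loss of *pmk-1* or of its caspase site was accompanied by a change in yolk protein mRNAs. In *pmk-1(-)*, all 6 genes had means below wild type, with log2 fold changes from -0.40 for *vit-4* to -0.13 for *vit-2* and a median of -0.26, where the median of all genes tested was -0.05. None of the 6 passed the threshold of an adjusted p below 0.1 in limma, a moderated linear model over the whole table, with 0.631% of all genes called in this comparison. At an unadjusted p below 0.05 there were 2 of 6, *vit-4* and *vit-5*, beside 4.65% of all genes tested.

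*vit-4* had 580.6, 587.7 and 578.1 TPM in the wild-type replicates 1, 2 and 3 and 407.6, 557.3 and 381.2 TPM in those of *pmk-1(-)*. The 3 *pmk-1(-)* values lay below the 3 wild-type values without overlap, and replicates 1 and 3 were far lower than replicate 2. Of the 6 genes, *vit-4* was the only 1 without overlap in this comparison, and 6.09% of all genes tested had no overlap between these libraries. The log2 fold change of *vit-4* was -0.40 (SE 0.13, 95% interval -0.68 to -0.11, limma adjusted p = 0.533).

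*vit-5* had 2109, 2151 and 2032 TPM in wild type and 1695, 2188 and 1494 TPM in *pmk-1(-)*, a log2 fold change of -0.24 (SE 0.10, 95% interval -0.46 to -0.02, limma adjusted p = 0.746). Here *pmk-1(-)* replicate 2 was above every wild-type library. The same library stood apart for *vit-1*, with 1620 TPM against 998.9 and 1061 TPM in replicates 1 and 3, and for *vit-3*, with 764.6 TPM against 472.0 and 511.1 TPM. Without *pmk-1(-)* replicate 2, *vit-4* and *vit-5* were called, with log2 fold changes of -0.56 and -0.40 and limma adjusted p-values of 0.0279 and 0.0193, in a fit that called 1.48% of all genes and had 31.7% at an unadjusted p below 0.05. *pmk-1(-)* replicate 2 also had the highest mean of the oocyte and eggshell genes, 8.32 on the scale of log2(TPM + 1), and *pmk-1(-)* replicate 1 the lowest, 7.32. With the mean of this list as a covariate in the model of all libraries, *vit-4* was at -0.29 (SE 0.09, limma adjusted p = 0.210) and *vit-5* at -0.18 (SE 0.09, limma adjusted p = 0.520) in *pmk-1(-)*.

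*vit-6* and *vit-2* followed another pattern in *pmk-1(-)*. *vit-6* had 4408, 4181 and 4354 TPM in wild type and 4449, 4338 and 2806 TPM in *pmk-1(-)*, so that replicate 1 was the highest of the 6 libraries and replicate 3 the lowest of all 21. *vit-2* had 3648, 3611 and 3827 TPM in wild type and 3706, 3842 and 2706 TPM in *pmk-1(-)*. The log2 fold changes were -0.19 (95% interval -0.49 to 0.11) for *vit-6* and -0.13 (95% interval -0.39 to 0.13) for *vit-2*, intervals that include 0.

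In *pmk-1(D327E)*, all 6 genes were slightly below wild type in the mean, with log2 fold changes from -0.14 to -0.05, and none was called by limma, with 0.0779% of all genes called and none of the 6 at an unadjusted p below 0.05. The 3 libraries were close together. *vit-5* had 1916, 1888 and 1915 TPM, below the lowest wild-type value of 2032 TPM, and *vit-1* had 1422, 1346 and 1385 TPM, below the lowest wild-type value of 1471 TPM. *vit-4* had 557.9, 503.3 and 539.9 TPM and *vit-3* 660.7, 632.0 and 641.8 TPM, again without overlap with wild type, although the gap for *vit-3* was narrow, at 660.7 against 662.8 TPM. Thus 4 of 6 genes had no overlap, beside 6.12% of all genes tested, but these genes are not separate observations. *vit-1*, *vit-3* and *vit-4* varied together across all libraries, and *vit-5* had r of 0.70 to 0.78 with them. The interval of *vit-5* ran from -0.36 to 0.08 and that of *vit-4* from -0.41 to 0.15, so the fit leaves room for reductions of that size.

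**Figure D2:**
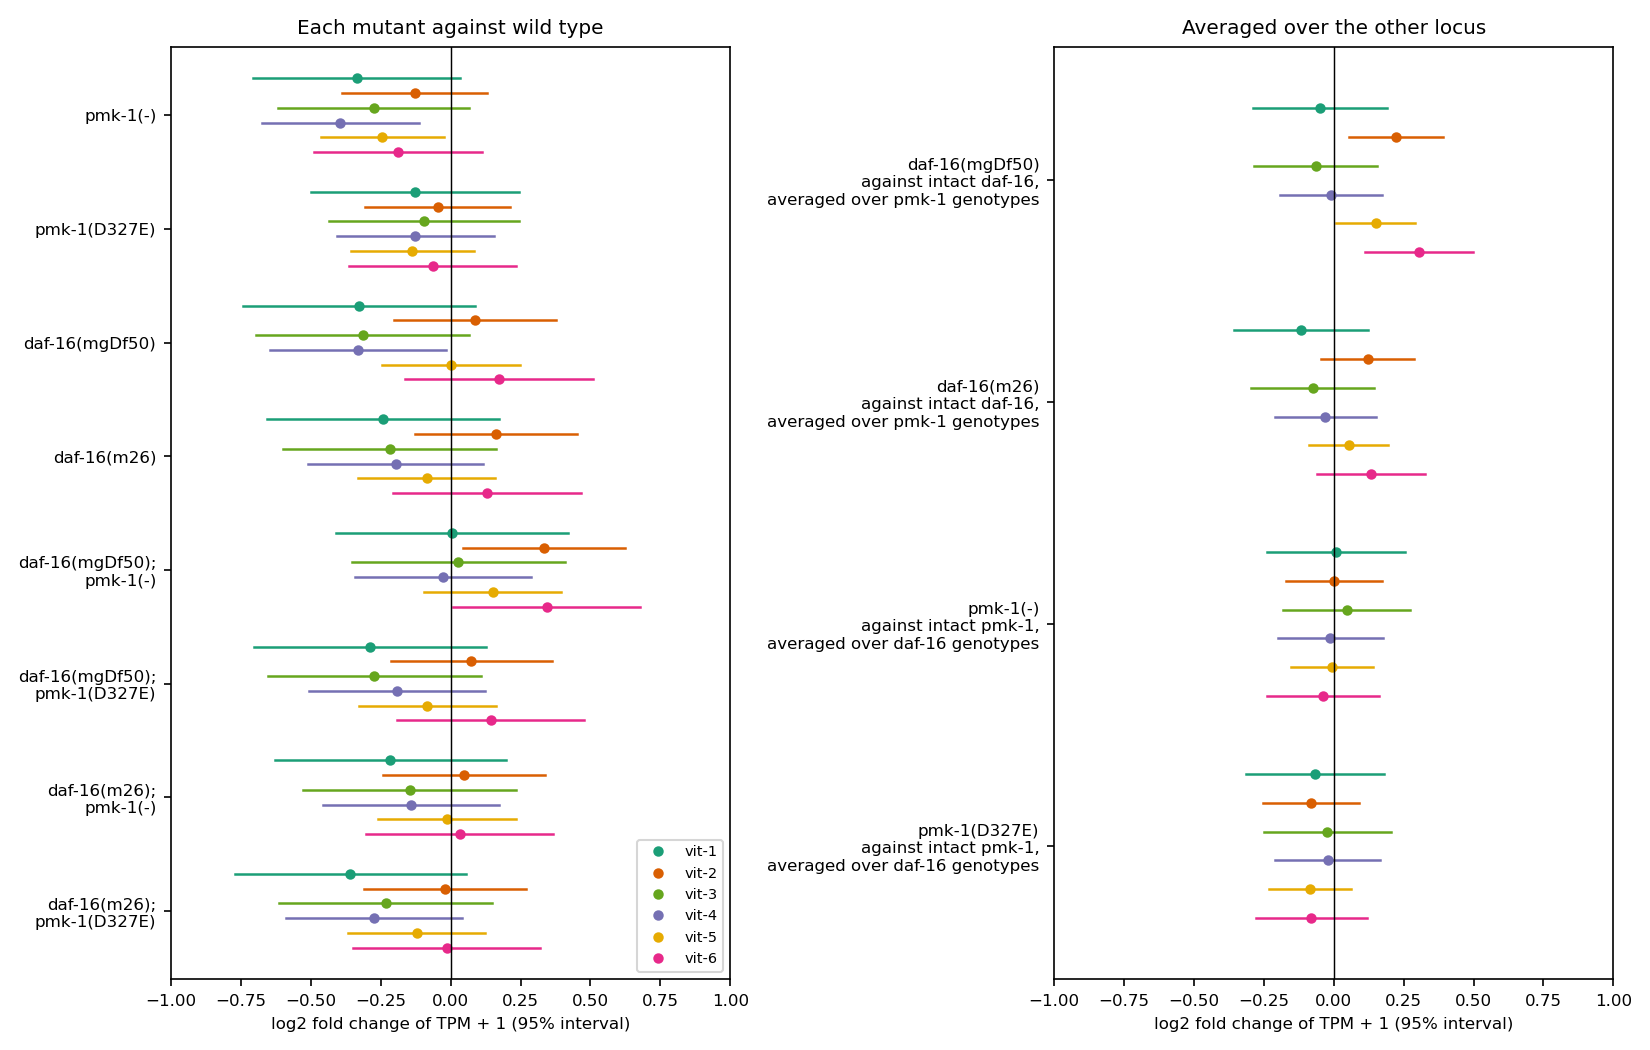
Log2 fold changes of TPM + 1 (horizontal axis) with their 95% intervals for the 6 genes, for each mutant against wild type (left) and for each allele averaged over the genotypes of the other locus (right). None was called at an adjusted p below 0.1, and the vertical line marks no change. The largest averaged value is that of *vit-6* with *mgDf50*, 0.30 with an interval from 0.11 to 0.50.

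The next question was whether *daf-16* affected the yolk protein genes, alone or under the *pmk-1* mutations. The *mgDf50* and the *m26* strains share all 9 libraries with intact *daf-16* as controls, so their comparisons are not independent. In *daf-16(mgDf50)* against wild type, the genes split, with *vit-6* at 0.17 and *vit-2* at 0.09 above 0 and *vit-1*, *vit-3* and *vit-4* at -0.33, -0.31 and -0.33 (log2 fold changes). *vit-5* was at 0.00. None was called by limma, with 0.366% of all genes called, and only *vit-4* had an unadjusted p below 0.05, beside 10.2% of all genes. Its interval ran from -0.64 to -0.02. With the replicate number as a block, *vit-1* and *vit-4* were called, at -0.36 each with limma adjusted p-values of 0.0926 and 0.0727, but this fit called 34.7% of all genes. In *daf-16(m26)*, *vit-2* was at 0.16 and *vit-6* at 0.13, the other 4 were below 0, and none was called by limma or had an unadjusted p below 0.05, with 0.195% of all genes called.

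Across the *pmk-1* genotypes, *vit-6* was the gene that differed most with *mgDf50*. It had 5134 and 4605 TPM in *daf-16(mgDf50)*, 5351 and 5599 TPM in *daf-16(mgDf50);pmk-1(-)* and 4806 and 4719 TPM in *daf-16(mgDf50);pmk-1(D327E)*. The 9 libraries with intact *daf-16* had a lowest value of 2806, a median of 4338 and a highest value of 4449 TPM. All 6 *mgDf50* libraries were therefore above all 9 others, which held for 1 of the 6 yolk protein genes and, in either direction, for 0.498% of all genes tested. Averaged over the 3 *pmk-1* genotypes, the log2 fold change of *vit-6* was 0.30 (SE 0.09, 95% interval 0.11 to 0.50), and its limma adjusted p of 0.111 missed the threshold.

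*vit-2* had 3760 to 4944 TPM in the *mgDf50* libraries and 2706 to 3842 TPM in those with intact *daf-16*, sets that overlapped only through *daf-16(mgDf50);pmk-1(D327E)* replicate 1. Its averaged log2 fold change was 0.22 (95% interval 0.06 to 0.39, limma adjusted p = 0.151) and that of *vit-5* was 0.15 (95% interval 0.01 to 0.29, limma adjusted p = 0.220). *vit-1*, *vit-3* and *vit-4* were at -0.05, -0.06 and -0.01, with intervals from -0.29 to 0.19, from -0.28 to 0.16 and from -0.19 to 0.17. None of the 6 was called by limma, with 2.57% of all genes called, and 3 of 6 had an unadjusted p below 0.05, beside 21.1% of all genes. Without *pmk-1(-)* replicate 1, *vit-2* and *vit-6* were called, the latter at 0.34 with a limma adjusted p of 0.0278, in a fit that called 24.6% of all genes. They were also called without *daf-16(mgDf50)* replicate 2, where *vit-6* was at 0.33 with a limma adjusted p of 0.0591 and 25.2% of all genes were called, and *vit-5* was called without *pmk-1(-)* replicate 2, at 0.20 with a limma adjusted p of 0.0580 beside 1.51% of all genes called. The replicate block gave 0.25 for *vit-6* and 0.20 for *vit-2*, with limma adjusted p-values of 0.0528 and 0.0699, and called 61.6% of all genes, so these calls set neither gene apart from the rest.

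Other intestinal genes were also higher in the mean in these libraries, and so were markers of some other tissues. Of the 10 intestinal markers, none was called and 5 had an unadjusted p below 0.05 in the averaged *mgDf50* comparison, where 21.1% of all genes did, and their median log2 fold change was 0.28, beside 0.02 for all genes tested. The intermediate filament gene *ifb-2* was at 0.72 (limma adjusted p = 0.179) and *elt-2*, the GATA factor that specifies intestinal transcription, at 0.26 (limma adjusted p = 0.220). The 4 body wall muscle markers were at 0.34 for *hlh-1* to 0.71 for *unc-54*. Of the epidermal markers, *col-10*, *rol-6* and *elt-3* were at 1.03, 0.60 and 0.12, and *elt-1* and *lin-26* at -0.04 and -0.17. None of these muscle and epidermal markers was called. The oocyte and eggshell genes had a median of -0.28 in the same comparison, with none of 18 called and 5 at an unadjusted p below 0.05, beside the same 21.1% of all genes. With the mean of the oocyte and eggshell list as a covariate, *vit-6* was at 0.30 (SE 0.10, limma adjusted p = 0.141) in this comparison, close to its value without the covariate. With genotype means removed, *vit-6* had r = -0.03 with this list, so the covariate could move its value little. *vit-1*, *vit-3* and *vit-4* moved to 0.13, 0.09 and 0.10 in the same fit, and none of these 3 was called. The part of the intestinal genes, or of the other tissues, in the *vit-6* result was not tested.

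With *m26*, *vit-2*, *vit-5* and *vit-6* again lay above 0, by less than with *mgDf50*. *vit-6* had 3757 to 4952 TPM in the 6 *m26* libraries, which overlapped with the 9 intact ones, and none of the 6 genes was free of overlap, beside 0.514% of all genes tested. The averaged log2 fold change was 0.13 for *vit-6* (95% interval -0.06 to 0.33), 0.05 for *vit-5* and 0.12 for *vit-2* (95% interval -0.05 to 0.29). None was called by limma or had an unadjusted p below 0.05, with 0.864% of all genes called. Whether the *daf-16* alleles differ in *vit-6* was not tested.

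The 4 double mutants gave no call against wild type either. In *daf-16(mgDf50);pmk-1(-)*, *vit-6* was at 0.34 (95% interval 0.01 to 0.68) and *vit-2* at 0.33 (95% interval 0.04 to 0.62), the 2 of 6 with an unadjusted p below 0.05 beside 8.23% of all genes, and limma called 0.872% of all genes. In *daf-16(mgDf50);pmk-1(D327E)*, 4 of 6 were below 0, from -0.29 to 0.14, with none at an unadjusted p below 0.05 and 0.257% of all genes called by limma. In *daf-16(m26);pmk-1(-)* the range was -0.22 to 0.05 with 0.958% of all genes called by limma, and in *daf-16(m26);pmk-1(D327E)* it was -0.36 to -0.01 with 0.21% of all genes called, and neither had a yolk protein gene at an unadjusted p below 0.05. With the replicate block, *vit-1* was called in *daf-16(mgDf50);pmk-1(D327E)*, at -0.32 with a limma adjusted p of 0.0955, in a fit that called 52.2% of all genes.

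Set against their own *daf-16* single mutant, the double mutants also gave no call. In *daf-16(mgDf50);pmk-1(-)* all 6 genes were above *daf-16(mgDf50)*, by 0.15 to 0.34 on the log2 scale with a median of 0.28, and limma called 0.405% of all genes. The pair of *daf-16(mgDf50)* libraries was itself spread, with 1006 and 1441 TPM of *vit-1* and 459.1 and 667.9 TPM of *vit-3* in replicates 1 and 2. *daf-16(mgDf50);pmk-1(D327E)* ranged from -0.08 to 0.14 with 0.202% of all genes called by limma. *daf-16(m26);pmk-1(-)* ranged from -0.11 to 0.07 with 0.358% called, and *daf-16(m26);pmk-1(D327E)* from -0.18 to -0.01 with 0.0467% called. In these 4 comparisons, none of the yolk protein genes had an unadjusted p below 0.05 in limma.

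The difference between the *pmk-1(-)* effect with and without *daf-16* was tested as an interaction. With *mgDf50*, all 6 values were above 0, from 0.36 to 0.70 on the log2 scale with a median of 0.51, beside 0.05 for all genes tested. *vit-4* had the largest, 0.70 (SE 0.21, 95% interval 0.25 to 1.14), and *vit-1*, *vit-3* and *vit-5* likewise had unadjusted p-values below 0.05, as did 1.27% of all genes. No member of the 6 was called, with 0.0779% of all genes called by limma and an adjusted p of 0.954 for each of the 6. With *m26* the range was 0.02 to 0.45, only *vit-4* had an unadjusted p below 0.05, beside 1.32% of all genes, and none was called, with 0.0156% of all genes called by limma. For *pmk-1(D327E)*, the range was 0.03 to 0.26 with *mgDf50* and -0.14 to 0.10 with *m26*. None of the 6 was called or had an unadjusted p below 0.05 in either, beside 0.109% and 0.0234% of all genes called by limma. These values use the same *pmk-1(-)* libraries whose *vit-4* values ranged from 381.2 to 557.3 TPM.

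Averaged over the *daf-16* genotypes, the yolk protein genes in the *pmk-1* mutants were near their level with intact *pmk-1*. For *pmk-1(-)*, the 6 log2 fold changes lay between -0.04 and 0.05 with 3 on each side of 0. This average joined medians of -0.26 with intact *daf-16*, 0.28 with *mgDf50* and 0.04 with *m26*, so it does not describe each background. The intervals ran from -0.15 to 0.14 for *vit-5*, the narrowest, and from -0.24 to 0.25 for *vit-1*, the widest. None was called by limma or had an unadjusted p below 0.05, with 1.65% of all genes called. For *pmk-1(D327E)* all 6 lay below 0, between -0.09 and -0.02, with the same counts and 0.296% of all genes called by limma.

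The yolk protein genes also varied together across libraries, in separate sets. Of the 15 pairs, 11 were correlated over the 21 libraries at an adjusted p below 0.05 by Pearson's r and 8 by Spearman's rho (two-sided permutation tests with 100000 resamples). *vit-1*, *vit-3* and *vit-4* varied together. *vit-1* and *vit-3* had r = 0.96 (permutation p = 1e-05, adjusted p = 3.75e-05) and rho = 0.98 (permutation p = 1e-05, adjusted p = 3.75e-05), where 1e-05 is the smallest p these permutations can give. *vit-3* and *vit-4* had r = 0.93 and rho = 0.93, and *vit-1* and *vit-4* r = 0.93 and rho = 0.93, each with the same p-values. *vit-3* and *vit-4* are neighbouring genes on the X chromosome in the RefSeq annotation and nearly alike in sequence, so reads could have been split between them.

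*vit-2* and *vit-6* formed the other set, with r = 0.95 and rho = 0.91 (permutation p = 1e-05 and adjusted p = 3.75e-05 for each). They do not lie next to each other, since *vit-6* is on chromosome IV and *vit-1* to *vit-5* are on X. The 6 pairs between the sets had lower values, with r of 0.22 to 0.53 and rho of 0.02 to 0.26. *vit-2* and *vit-4* had r = 0.53 (permutation p = 0.0139, adjusted p = 0.0209) and rho = 0.26 (permutation p = 0.262, adjusted p = 0.360), and *vit-1* and *vit-2* r = 0.48 (permutation p = 0.0258, adjusted p = 0.0351) and rho = 0.25 (permutation p = 0.264, adjusted p = 0.360), so both pairs passed by Pearson's r and not by rank. The other 4 pairs passed by neither measure. Of these, *vit-3* and *vit-6* had r = 0.22 (permutation p = 0.331, adjusted p = 0.331) and rho = 0.02 (permutation p = 0.926, adjusted p = 0.926). *vit-1* and *vit-6* had r = 0.32 (permutation p = 0.154, adjusted p = 0.165) and rho = 0.07 (permutation p = 0.757, adjusted p = 0.811). *vit-5* lay between, with r of 0.70 to 0.78 with the first set, 0.74 with *vit-2* and 0.73 with *vit-6*.

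Within the sets the relations remained close when libraries were left out. The 2 libraries left out of a pair were those farthest from the median of its first-named gene. Without them, *vit-1* and *vit-3* had r = 0.94 and *vit-2* and *vit-6* r = 0.90, whereas *vit-5* and *vit-6* fell to 0.34 and *vit-2* and *vit-5* to 0.39. For those pairs of *vit-5*, r was 0.59 and 0.64 with the genotype means removed, 0.46 and 0.57 within replicate number 1, and 0.55 and 0.53 within replicate number 2. Between the sets, the r without the 2 farthest libraries moved both ways. It was higher for *vit-1* and *vit-2* (0.60), *vit-1* and *vit-6* (0.53) and *vit-3* and *vit-6* (0.47). It was lower for *vit-4* and *vit-6* (0.29), *vit-2* and *vit-4* (0.15) and *vit-2* and *vit-3* (0.03). The libraries left out differed with the first-named gene, so these pairs were not compared on the same libraries. With the genotype means removed, *vit-1* and *vit-3* had r = 0.95, *vit-2* and *vit-6* r = 0.94, and the 6 pairs between the sets r of 0.21, for *vit-3* and *vit-6*, to 0.62, for *vit-2* and *vit-4*. Within the 9 libraries of replicate number 1 *vit-1* and *vit-3*, *vit-2* and *vit-6*, and *vit-3* and *vit-6* had r of 0.93, 0.93 and -0.15, and within the 9 of replicate number 2 they had 0.99, 0.99 and 0.22.

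The ratios show the same division in each library. *vit-1* was 1.83 to 2.24 times *vit-3*, with a coefficient of variation of 4.32% over the libraries, and *vit-6* was 1.04 to 1.30 times *vit-2*, with one of 4.72%. The ratio of *vit-6* to *vit-3* ranged from 5.49 to 11.2, with a coefficient of variation of 18.8%. It was 11.2 in *daf-16(mgDf50)* replicate 1 and 9.43 in *pmk-1(-)* replicate 1, and 6.42, 5.82 and 6.57 in the 3 wild-type libraries. *daf-16(mgDf50)* replicate 1 had the lowest *vit-3* value of all libraries, 459.1 TPM, together with 5134 TPM of *vit-6*, which only the pair of *daf-16(mgDf50);pmk-1(-)* libraries exceeded.

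**Figure D3:**
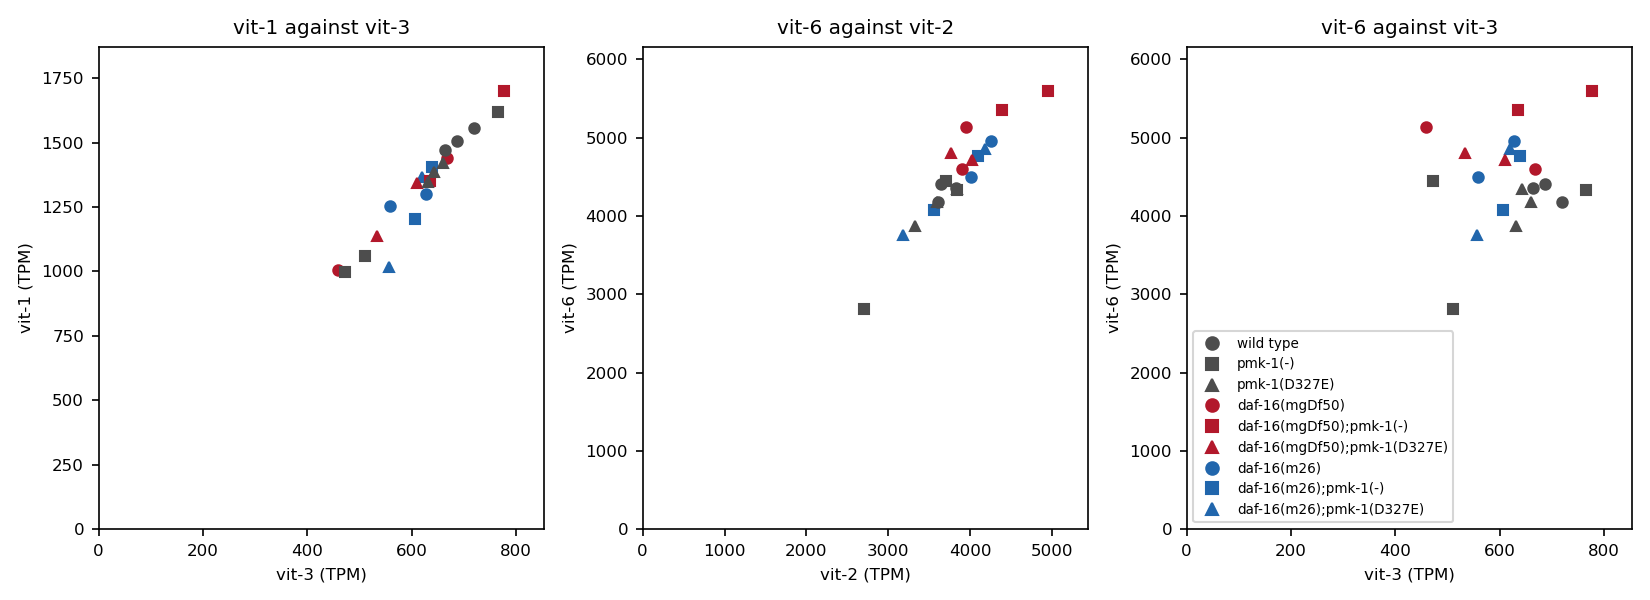
TPM of *vit-1* against *vit-3*, of *vit-6* against *vit-2* and of *vit-6* against *vit-3*, with axes from 0 and a point for each library. Symbols mark the *pmk-1* genotype and colours the *daf-16* genotype. The first pairs lie along a line (r of 0.96 and 0.95 on the log2 scale), and *vit-6* against *vit-3* does not (r of 0.22).

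Each gene was then set against the developmental timing of the libraries. Timing was read from 5 lists of genes: *msp* genes of sperm (29 of 31 tested), oocyte and eggshell genes (18 of 18), genes of the adult cuticle (3 of 4), moulting genes (9 of 14) and early zygotic genes, of which only *vet-2* (1 of 14), a gene named for its early embryonic transcription, passed and which is therefore a single gene here. The mean of log2(TPM + 1) of each list was related to each *vit* gene, 30 relations in all, and 11 passed an adjusted p of 0.05 by Pearson's r and 15 by Spearman's rho. The 11 by Pearson's r all involved *vit-1*, *vit-3* or *vit-4*.

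*vit-3* rose with the oocyte and eggshell genes, with r = 0.78 (permutation p = 5e-05, adjusted p = 0.00135) and rho = 0.73 (permutation p = 0.00024, adjusted p = 0.0024). For *vit-1* the values were r = 0.75 (permutation p = 9e-05, adjusted p = 0.00135) and rho = 0.76 (permutation p = 0.0001, adjusted p = 0.0015). *vit-4* had r = 0.63 (permutation p = 0.00268, adjusted p = 0.0115) and rho = 0.62 (permutation p = 0.00337, adjusted p = 0.0144). The oocyte list holds genes such as *cpg-1* and *cpg-2*, the chondroitin proteoglycans of the eggshell, and *oma-1* and *oma-2*, which drive oocyte maturation.

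*vit-2* had r = -0.03 (permutation p = 0.887, adjusted p = 0.918) and rho = -0.07 (permutation p = 0.750, adjusted p = 0.796) with the same list. *vit-6* had r = -0.20 (permutation p = 0.397, adjusted p = 0.541) and rho = -0.30 (permutation p = 0.191, adjusted p = 0.260), and *vit-5* r = 0.28 (permutation p = 0.215, adjusted p = 0.323) and rho = 0.28 (permutation p = 0.215, adjusted p = 0.281). Whether these relations differ between the genes was not tested.

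The sperm, moulting and adult cuticle lists ran the other way for *vit-1* and *vit-3*. *vit-3* had r = -0.59 with the sperm genes (permutation p = 0.00537, adjusted p = 0.0201) and rho = -0.60 (permutation p = 0.00495, adjusted p = 0.0165). With the moulting genes it had r = -0.53 (permutation p = 0.0127, adjusted p = 0.0370) and rho = -0.57 (permutation p = 0.00786, adjusted p = 0.0197). Sperm are made before oocytes in the hermaphrodite, and *msp* mRNA is a product of that earlier phase. With the adult cuticle list, *vit-3* had r = -0.70 (permutation p = 0.00033, adjusted p = 0.00198) and rho = -0.69 (permutation p = 0.00074, adjusted p = 0.0037). The variation in that list came from *col-7*, a collagen gene that ranged from 0.307 to 71.7 TPM, and *bli-2*, needed for the struts of the adult cuticle, from 0.0565 to 5.88 TPM, whereas *col-19* varied less. *vit-6* had r = 0.37 with this list (permutation p = 0.101, adjusted p = 0.190) and rho = 0.58 (permutation p = 0.00689, adjusted p = 0.0188), so only its ranks passed.

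With *vet-2*, *vit-3* had r = 0.73 (permutation p = 0.00027, adjusted p = 0.00198) and rho = 0.73 (permutation p = 0.00038, adjusted p = 0.00285), and *vit-1* had r = 0.71 (permutation p = 0.00027, adjusted p = 0.00198) and rho = 0.75 (permutation p = 5e-05, adjusted p = 0.0015). *vet-2* itself ranged from 0.824 to 6.11 TPM, lowest in *pmk-1(-)* replicate 1 and highest in *pmk-1(-)* replicate 2. The same 2 libraries had 472.0 and 764.6 TPM of *vit-3*.

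The relations were also computed in parts of the data. Without the 2 libraries farthest from the list median, the r of *vit-3* with the oocyte and eggshell genes was 0.62 and that of *vit-1* was 0.61, and 8 of 30 relations passed by Pearson's r. With the genotype means removed from both, *vit-3* had r = 0.88 (exact permutation p within genotypes = 0.00629, adjusted p = 0.0315) and *vit-1* r = 0.88 (exact permutation p within genotypes = 0.00217, adjusted p = 0.0130), while *vit-6* had r = -0.03 (exact permutation p within genotypes = 0.939, adjusted p = 0.978). *vit-5* had r = 0.55 (exact permutation p within genotypes = 0.2013, adjusted p = 0.3355). With the sperm genes, *vit-5* had r = -0.67 (exact permutation p within genotypes = 0.0302, adjusted p = 0.0905) and rho = -0.65 (exact permutation p within genotypes = 0.00846, adjusted p = 0.0360), so only its ranks passed. Within the 9 libraries of replicate number 1, *vit-3* had r = 0.82 (exact permutation p = 0.00811, adjusted p = 0.147) with the oocyte and eggshell list, and within the 9 of replicate number 2, r = 0.55 (exact permutation p = 0.126, adjusted p = 0.298). By Pearson's r, none of the 30 relations passed within either number. By Spearman's rho, none passed within number 1 and 3 passed within number 2, those of the moulting genes with *vit-1* (rho = -0.90, exact permutation p = 0.00203, adjusted p = 0.0304), *vit-3* (rho = -0.92, exact permutation p = 0.00131, adjusted p = 0.0304) and *vit-5* (rho = -0.87, exact permutation p = 0.00451, adjusted p = 0.0451).

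**Figure D4:**
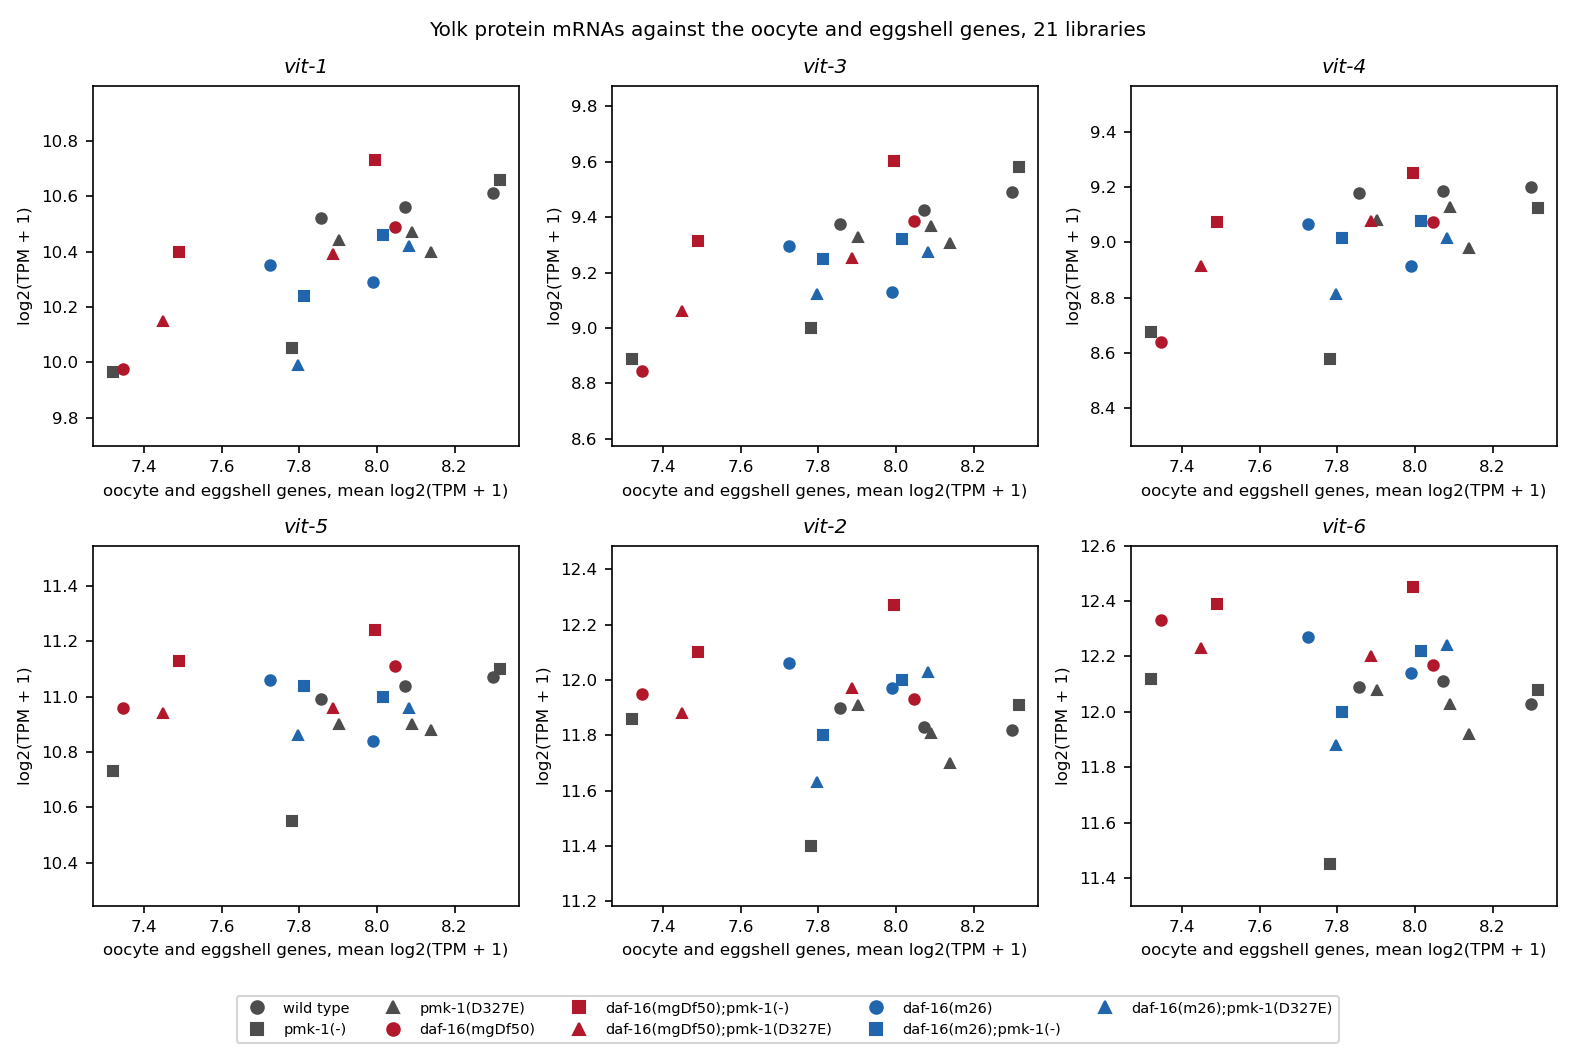
Log2(TPM + 1) of each yolk protein gene (vertical axis, the same span in each panel) against the mean log2(TPM + 1) of the 18 oocyte and eggshell genes (horizontal axis), a point for each library, with symbols for the *pmk-1* and colours for the *daf-16* genotype. *vit-1* and *vit-3* rise with the list (r of 0.75 and 0.78), *vit-2* and *vit-6* do not (r of -0.03 and -0.20).

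The genes that carry yolk out of the intestine and into the oocyte did not pass the test in any of the 20 comparisons. This list of 16 holds *rme-2*, the yolk receptor of the oocyte, *dsc-4*, the microsomal triglyceride transfer protein that loads lipid onto vitellogenin, *sft-4*, needed for its export from the endoplasmic reticulum, the clathrin and adaptor genes *chc-1* and *apa-2*, and *rab* and *rme* genes of endocytic traffic. At an unadjusted p below 0.05, limma gave 1 of 16 in *pmk-1(-)* and 1 of 16 in *daf-16(m26)* against wild type, where 4.65% and 7.23% of all genes reached it, and none in the other 18 comparisons. *rme-2* ranged from 194.2 TPM in *pmk-1(-)* replicate 1 to 438.1 TPM in wild type replicate 2, with a log2 fold change of -0.37 (SE 0.26, limma adjusted p = 0.746) in *pmk-1(-)* and -0.46 (SE 0.29, limma adjusted p = 0.513) in *daf-16(mgDf50)*. *dsc-4* ranged from 15.97 to 42.65 TPM and was at 0.54 (SE 0.32, limma adjusted p = 0.506) in *daf-16(mgDf50)*. *cpl-1*, a cathepsin L that processes yolk in embryos, varied little, from 1197 to 1456 TPM.

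Of 15 known or proposed regulators of yolk protein transcription, 14 were tested, and *mab-3*, which represses the *vit* genes in males, was below the filter at 0.341 to 0.876 TPM. The only regulator called in any comparison was *daf-16* itself, lower with *mgDf50* and higher in *daf-16(m26);pmk-1(-)* and in the averaged *m26* comparison. *unc-62* and *ceh-60*, homeodomain genes that activate the *vit* genes in the intestine, were at 15.1 to 22.2 TPM and 9.63 to 29.9 TPM. *ceh-60* had an averaged log2 fold change of 0.50 (SE 0.20, limma adjusted p = 0.181) with *mgDf50* and 0.45 (SE 0.20, limma adjusted p = 0.414) with *m26*. *pqm-1*, a zinc finger gene that acts opposite to *daf-16* in insulin signalling, was at 0.42 (SE 0.21, limma adjusted p = 0.257) with *mgDf50*. *sgk-1*, a kinase of the same pathways, was at 0.38 (SE 0.13, limma adjusted p = 0.154). These values did not pass, as for *vit-6*. The regulators with fold changes were named after their values were seen, so they do not stand for the list as a whole. In the averaged *mgDf50* comparison, limma called 2.57% of all genes, and 2706 of 12843 had an unadjusted p below 0.05.

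By profile, the genes most like the 6 yolk protein genes as a group were sought among the 9391 genes whose mean was 5 TPM or more, by Pearson's r over the 21 libraries with the mean of the standardised log2 values of the 6. The median r of these genes was 0.27 and the 99th percentile was 0.71. *gsk-3*, which encodes glycogen synthase kinase, came first with r = 0.87, and 0.94 with genotype means removed, which was also the highest. *Y75B8A.24*, *lpd-3* and *gbf-1* followed with r of 0.84, 0.84 and 0.83, then *Y79H2A.3*, *R148.3*, *Y105E8A.29*, *emb-4*, *sec-24.1* and *D2045.2* with r of 0.79 to 0.82. *gbf-1* and *sec-24.1* encode a guanine nucleotide exchange factor of the early secretory pathway and a coat subunit of vesicles that leave the endoplasmic reticulum. *sec-24.1* had r = 0.80, and 0.93 with genotype means removed. *gbf-1* was closer to *vit-2* (r = 0.84) than to *vit-3* (r = 0.54), whereas *emb-4*, a helicase of nuclear small RNA pathways, was closer to *vit-3* (r = 0.85) than to *vit-2* (r = 0.42). These genes were selected for their r, so the values are a description.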

How the data were processed

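Poly-A RNA of whole animals was sequenced as single-end reads of 76 bp from stranded libraries. According to the study's notes the reads were checked with FastQC 0.11.2, aligned with STAR (2.5.3a in the submitters' processing notes) to ce10, stripped of duplicates with Picard 2.10 and counted with featureCounts on RefSeq genes. The authors deposited TPM values of 22840 genes in 21 libraries, each summing to 1000000. TPM does not state depth, and the steps described below give only an estimate of it, so no counting interval is given. How strand and multiply matching reads were handled is not given in the sources used here, and near-identical *vit* genes may share reads. Removal of duplicates from single-end reads would lower the most abundant mRNAs. Low TPM values multiplied by exon length came within 0.02 of a multiple of 1 step per library for 38.0 to 46.5% of genes. The steps would put 12.4 to 196 reads on each exon base of the *vit* genes, more than the single read per start that duplicate removal leaves, so whether the values were made before that removal is not settled here. The 8 deposited tables of the authors' own edgeR comparisons hold fold changes and p-values and were not used.

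From the TPM values, log2(TPM + 1) of 12843 genes (mean of 1 TPM or more) was fitted with limma 3.58.1 (R 4.3.3; trend and robust estimation) in 1 model of the 9 genotypes, with 20 comparisons. Calls required a Benjamini-Hochberg adjusted p below 0.1 over all genes tested. A fold change is on the log2(TPM + 1) scale. The fit was tested on simulated data. Relations across libraries used Pearson's r and Spearman's rho with 100000 permutations, or with all 362880 orders of 9 libraries, or all 13824 orders within genotypes. Libraries of equal replicate number were compared by correlating their deviations from genotype means. For numbers 1, 2 and 3, *pmk-1(-)* and wild type gave 0.196, 0.856 and 0.424. *pmk-1(D327E)* and wild type gave 0.0174, 0.711 and 0.766. The genotypes with a *daf-16* allele gave 0.119 to 0.227 for number 1 and 0.251 to 0.702 for number 2. All values were positive, so libraries of equal number tended to deviate alike, and the main fit had no replicate block. In genotypes with 2 libraries the deviations mirror each other, so unequal numbers would only change the sign. Every value uses the same wild-type libraries, so these values do not settle whether the numbers pair libraries in any genotype. Both libraries of *daf-16(mgDf50);pmk-1(-)* carry replicate number 1 in their titles and were numbered by the short names beside it. Alternatives were pseudocounts of 0.1 and 0.5, no filter or a mean of 5 TPM, rescaled libraries, fits of the compared genotypes alone, a replicate block, limma without trend and robust estimation, a threshold of 0.05, a sperm or oocyte list as covariate, and leaving out each library. Named genes are the 6 *vit* genes, *pmk-1*, *daf-16*, list members that were called or serve as examples of a role, and the 10 genes most like the *vit* genes. Markers of body wall muscle and epidermis were named as well. These markers, *bli-2*, *col-7* and the regulators with values were named after their values were seen. The members and lists were chosen with earlier results of these data known. Chromosomes and neighbours are from the RefSeq annotation of WBcel235, and no coordinates are given because the build differs. The remaining work used matplotlib 3.10.9, scipy 1.17.1, pandas 2.3.3 and numpy 2.4.6 under Python 3.11.15.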

Additional observations from a re-analysis of the deposited data

How the results depend on the processing

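Of the counts of yolk protein genes called, 630 of 640 alternatives gave the same 0. The other 10 gave calls that the fit of all libraries did not make. No value that was called in either fit changed sign, but values that were not called could. In the averaged *mgDf50* comparison, *vit-1*, *vit-3* and *vit-4* were at -0.05, -0.06 and -0.01. With the oocyte and eggshell mean as a covariate they were at 0.13, 0.09 and 0.10. For *pmk-1(-)* against wild type, the counts ranged from 0 to 2 when each library was left out, with 2 without *pmk-1(-)* replicate 2. For *mgDf50* averaged over *pmk-1* genotypes, they ranged from 0 to 2, with 2 without *pmk-1(-)* replicate 1, 2 without *daf-16(mgDf50)* replicate 2 and 1 without *pmk-1(-)* replicate 2. The replicate block, whose pairing is not settled for any genotype, gave 2 calls for *daf-16(mgDf50)* against wild type. It gave 1 for *daf-16(mgDf50);pmk-1(D327E)* against wild type and 2 for *mgDf50* averaged, and changed no other count. The *msp* mean as a covariate gave 1 call for *mgDf50* averaged (*vit-5*, 0.20, limma adjusted p = 0.0602, 6.1% of all genes called) and 1 for *daf-16(mgDf50);pmk-1(-)* against *daf-16(mgDf50)* (*vit-3*, 0.48, limma adjusted p = 0.0883, 3.32% of all genes called). The oocyte and eggshell mean gave 1 for *mgDf50* averaged (*vit-5*, 0.21, limma adjusted p = 0.0820, 5.65% of all genes called). The 11 relations with timing lists by Pearson's r became 6 with genotype means removed, 0 within replicate number 1, 0 within replicate number 2, 8 without the 2 farthest libraries and 11 with a pseudocount of 0.1. The 15 by Spearman's rho became 12, 0, 3, 7 and 15. The causes were not tested. With 2 libraries in most genotypes, the 95% intervals of single genes, such as -0.66 to 0.17 for *vit-1* in *daf-16(m26)*, leave room for changes that were not detected.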
